A study of Danio rerio with 4 samples.

Results

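Macrophages of the zebrafish body and microglia, the macrophages of the brain, were followed through 10 genes that are read as their markers: csf1ra, csf1rb, spi1b, irf8, mpeg1.1, marco, lcp1, p2ry12, slc7a7 and apoeb. The genes were picked by name from the 23236 rows of the count table, and all 10 had a single row and passed the filter on low counts. The list was selected on known marker roles by a reader to whom the mutant and sibling counts of these libraries were already known. Fold changes of the 10 genes, and whether they passed a threshold, are therefore given as descriptions, with no p-value. The other gene lists were also chosen with earlier results known, so p-values printed for their genes are descriptions too. RNA came from whole zebrafish of the AB strain at 7 days post fertilisation (dpf), in 2 libraries of tubgcp6 mutants and 2 libraries of their siblings from crosses of tubgcp6+/- parents, with no further treatment. The sources used here state neither the mutant lesion, the genotypes among the siblings nor the number of animals in a library. The sample titles call the libraries of each group biological replicates. How the replicates were made, and whether libraries share a clutch, is not stated, so a p-value speaks only to the spread among these libraries.

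Macrophages arise from myeloid progenitors under the transcription factor Pu.1, and live on signals through the Csf1 receptor, which binds Csf1 and Il34. Fish carry a pair of receptor genes. In zebrafish csf1ra acts in macrophages and is also needed by yellow pigment cells, the xanthophores, whereas csf1rb is known from blood progenitors and the macrophages and microglia that descend from them. Microglia enter the brain from early macrophages and are later replaced by cells of blood stem cell origin, and they are commonly stained through apoeb.

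The libraries held 14246582 to 20652276 counts. The gene tubgcp6 itself had 510 and 531 counts in mutants and 498 and 803 in siblings, a log2 fold change (mutant over sibling throughout) of -0.33 ± 0.10 (standard error, SE). That call was lost without sibling replicate 2 (-0.25) and in DESeq2 (-0.34). Of the 20097 genes tested, 43.9% passed a threshold of 0.05 on the p-value adjusted by the Benjamini-Hochberg method (quasi-likelihood test of edgeR), 21.0% lower and 22.9% higher in mutants, and all genes together had a median log2 fold change of 0.01. These 21.0% and 22.9% are the background for every count of falls and rises on a gene list given below. The lists were chosen with earlier results known, so nothing is read from such counts alone. None of the 10 genes lies on the chromosome of tubgcp6 in RefSeq's table of the assembly GRCz12tu.

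The 10 genes did not move as a block. In mutants csf1rb, lcp1, spi1b, mpeg1.1 and csf1ra were lower and passed the threshold, apoeb and irf8 were higher and passed it, and marco, p2ry12 and slc7a7 did not pass. That is 5 of 10 lower against 21.0% of all genes, and 2 of 10 higher against 22.9%; since the list was chosen with these values known, nothing is read from the comparison. The median log2 fold change of the 10 was -0.24. The mutant and sibling values did not overlap for 9 of the 10, with slc7a7 as the exception, and 71.7% of all tested genes were likewise without overlap. Whole animals were sequenced, so fewer cells of a type and less RNA per cell cannot be told apart.

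**Figure D1:**
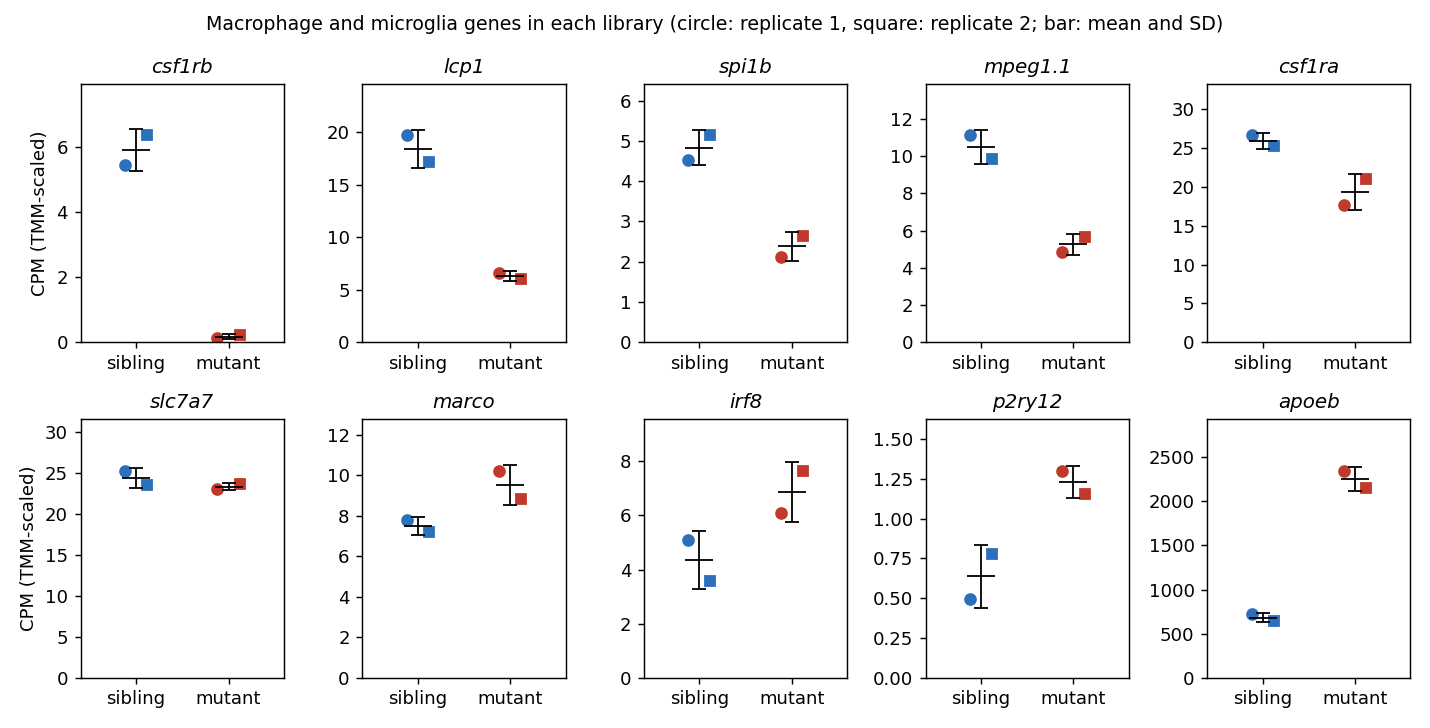
CPM (counts scaled by library size and TMM factor; y axes start at 0 and differ between panels) of the 10 genes in each library, siblings in blue and mutants in red, with circles for replicate 1, squares for replicate 2, and black bars for the mean and SD of 2 libraries. The panels run from csf1rb, at 0.118 and 0.220 CPM in mutants, to apoeb, at 2347 and 2157 CPM; only in slc7a7 do the groups overlap.

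The receptor gene csf1rb stood lowest relative to siblings. Mutant libraries held 2 and 4 of its counts, and sibling libraries 77 and 131, or 0.118 and 0.220 CPM (counts scaled to a common library size) against 5.45 and 6.35 CPM. Both mutant libraries were far below both sibling libraries, and the smallest gap between a mutant and a sibling library was 4.63 on the log2 scale. The fitted log2 fold change was -5.07 ± 0.42 (SE), the 9th lowest of the 20097 genes tested. With so few mutant counts the fitted value depends on the counting error: the ratio of scaled counts was 0.0286, with a 95% exact binomial interval of 0.0104 to 0.0632, which covers counting error only. Leaving out each library in turn gave log2 fold changes from -5.58 to -4.73.

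Its paralogue csf1ra was lower by much less. It had 299 and 381 counts in mutants and 376 and 520 in siblings, or 17.7 and 21 CPM against 26.6 and 25.2 CPM. The groups did not overlap, but the nearest mutant and sibling libraries lay 0.27 apart on the log2 scale, close to the 0.25 between the mutant libraries. The log2 fold change was -0.42 ± 0.12, and csf1ra no longer passed without sibling replicate 1 (-0.38). Within each library, csf1rb made up 17% of the counts of the receptor pair in sibling replicate 1 (95% exact binomial interval 13.7% to 20.8%) and 20.1% in sibling replicate 2 (17.1% to 23.4%). In the mutant libraries that share was 0.664% (0.0806% to 2.38%) and 1.04% (0.284% to 2.64%). This share does not depend on how the libraries are scaled, and it was lower in both mutant libraries than in either sibling library.

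Genes beside the receptors went both ways. Neighbours, here and for apoeb, are the nearest genes in RefSeq's order that match a single row of the count table. Genes without such a row were skipped. Beside csf1rb in RefSeq's order, pdlim4 rose (0.82 ± 0.12) and the calcium-dependent kinase gene camk2a fell (-0.75 ± 0.12), while sra1 did not pass (0.30 ± 0.16). On the same stretch dkc1, of a pseudouridine synthase, was at 0.24 ± 0.10, a call lost with size factors of the RLE method (adjusted p = 0.0575 in edgeR's quasi-likelihood test) and under 6 further alternatives. Beside csf1ra, its receptor relative pdgfrb, of a platelet-derived growth factor receptor of mural cells, rose by 0.82 ± 0.10, with a mutant mean of 54.9 ± 0.721 CPM and a sibling mean of 31.2 ± 1.46 CPM (SD, n = 2 each). The other csf1ra neighbours were slc35a4, which did not pass (-0.09 ± 0.10), hmgxb3 (-0.50 ± 0.17, a call lost in DESeq2 and without any of 3 libraries) and cdx1a (-0.68 ± 0.17, lost without sibling replicate 2).

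Ligand genes of the receptor were higher or did not pass. The gene il34, whose product draws macrophages into the zebrafish brain, had 178 and 188 counts in mutants and 65 and 77 in siblings. Both mutant libraries were above both sibling libraries, and il34 rose by 1.34 ± 0.19 (adjusted p = 9.43e-07, edgeR's quasi-likelihood test). The gene csf1a, at 69 and 81 against 40 and 50 counts, rose by 0.72 ± 0.25 (adjusted p = 0.0203), a call lost in DESeq2, without mutant replicate 2 and without sibling replicate 2 (log2 fold changes 0.70, 0.65 and 0.59). The gene csf1b had 67 and 52 counts in mutants and 24 and 67 in siblings, which overlap once scaled, and did not pass (0.39 ± 0.29; 0.99 without sibling replicate 2 and 0.06 without sibling replicate 1).

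Among the other receptor kinases of the same class, flt3, a receptor gene of lymphoid and dendritic progenitors, had 4 and 4 counts in mutants and 31 and 14 in siblings and was lower (-2.48 ± 0.63). Without sibling replicate 1 it was at -1.55 and no longer passed, and without sibling replicate 2 it was at -3.23. The Kit receptor gene kitb was lower (-0.54 ± 0.18), a call lost in DESeq2 and without mutant replicate 1 or either sibling library. Its relative kita (-0.27 ± 0.12) did not pass, though it did with upper-quartile scaling (-0.30), with the replicate block (-0.27) and without mutant replicate 2 (-0.39). Also below the threshold was pdgfra (0.09 ± 0.09), a growth factor receptor gene of mesenchyme. Of these 5 kinase genes, pdgfrb included, 1 rose and 2 fell (median -0.27); none fell without sibling replicate 1, and 1 fell without mutant replicate 1, without sibling replicate 2 or in DESeq2. In the settings where kita passed, 3 fell.

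**Figure D2:**
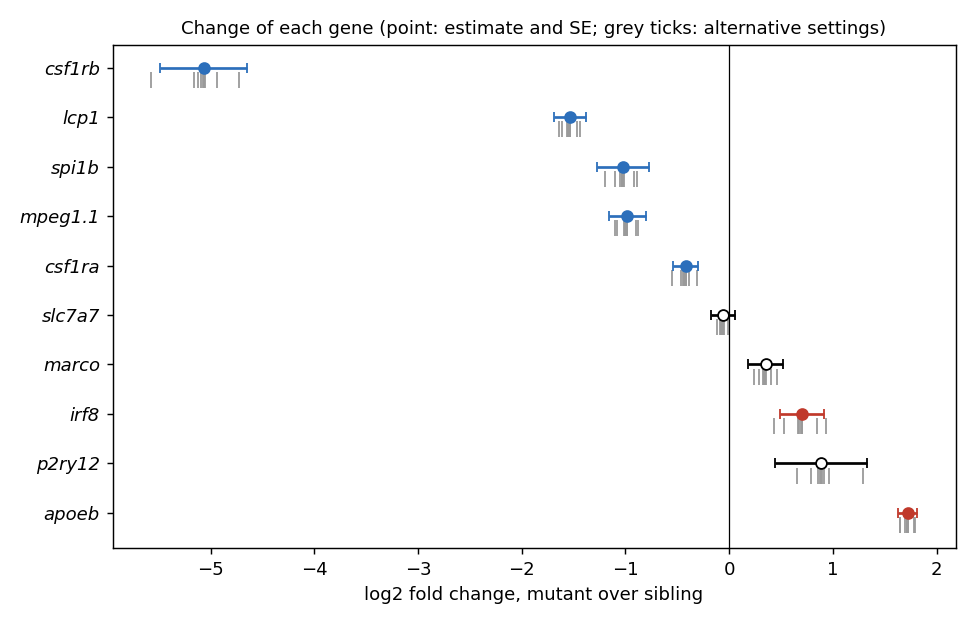
Log2 fold change of the 10 genes, mutant over sibling (x axis), each with its SE; filled points passed an adjusted p of 0.05 over all genes, open points did not, and grey ticks are the values under 10 alternative settings. The points run from -5.07 for csf1rb to 1.72 for apoeb, and no gene changes sign under any of the 10 settings.

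The pair of transcription factor genes had opposite signs. Gene spi1b encodes Pu.1, the factor that commits progenitors to the myeloid fate, and had 36 and 48 mutant counts against 64 and 106 sibling counts, or 2.13 and 2.64 against 4.53 and 5.14 CPM. Both mutant libraries were below both sibling libraries, with a log2 fold change of -1.03 ± 0.25. Its paralogue spi1a had 16 and 30 counts in mutants and 46 and 96 in siblings and fell by 1.63 on the log2 scale (SE 0.31; adjusted p = 9.3e-05, edgeR's quasi-likelihood test). Of the counts of the spi1 pair, spi1a took 30.8% and 38.5% in mutants and 41.8% and 47.5% in siblings.

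In contrast irf8, of a factor that directs myeloid cells to macrophages rather than neutrophils and is needed for zebrafish microglia, had 103 and 139 counts in mutants and 72 and 74 in siblings. In CPM these are 6.09 and 7.65 against 5.10 and 3.59, so the groups did not overlap, though the sibling libraries lay 0.51 apart on the log2 scale. The log2 fold change was 0.70 ± 0.22. It no longer passed without mutant replicate 2 (0.53), without sibling replicate 2 (0.43) or in DESeq2 (0.66), and it reached 0.94 without sibling replicate 1. Per count of spi1b there were 2.86 and 2.90 counts of irf8 in mutants, and 1.13 and 0.698 in siblings.

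Of 10 further myeloid transcription factor genes, 2 rose and 3 fell, with a median of 0.04. The rises were cebpb, of a factor of emergency myeloid growth and acute-phase responses (0.74 ± 0.09), and mafba (0.28 ± 0.09, lost in DESeq2 and without either sibling library), a Maf factor gene named after its values were seen. Besides spi1a the falls were ikzf1, a lymphoid and myeloid factor gene (-1.03 ± 0.31), and mafbb (-0.43 ± 0.13), and both calls were lost in DESeq2 and without sibling replicate 2. The count of falls was 1 under each of these settings and 5 without mutant replicate 1, and the count of rises was 1 in DESeq2 and without either sibling library.

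Effector genes differed in direction too. The gene mpeg1.1, of the pore-forming protein perforin-2 and the usual source of macrophage reporter lines, had 82 and 103 counts in mutants and 157 and 203 in siblings, or 4.85 and 5.67 against 11.1 and 9.84 CPM. Both mutant libraries were below both sibling libraries (log2 fold change -0.98 ± 0.18). Its paralogue mpeg1.2, known to respond to bacterial infection in zebrafish, had 631 and 641 counts in mutants and 199 and 287 in siblings. It rose by 1.37 ± 0.12 (adjusted p = 4.5e-11, edgeR's quasi-likelihood test). Of the counts of the mpeg1 pair, mpeg1.2 took 88.5% and 86.2% in mutants, above its 55.9% and 58.6% in siblings. The sources used here do not say how reads shared by the copies were assigned, so the split is uncertain.

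The scavenger receptor gene marco, which binds bacteria on macrophages, had 173 and 160 counts in mutants and 110 and 148 in siblings, or 10.2 and 8.81 against 7.79 and 7.18 CPM. The groups did not overlap, yet the closest libraries were 0.18 apart on the log2 scale, less than the 0.21 between the mutant libraries. Its log2 fold change of 0.35 ± 0.17 did not pass, except without mutant replicate 2 (0.46).

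The actin-bundling gene lcp1, which encodes L-plastin and marks leukocytes in general, had 112 and 109 counts in mutants and 278 and 353 in siblings. In CPM this is 6.62 and 6.0 against 19.7 and 17.1, with both mutant libraries below both sibling libraries and the closest libraries 1.37 apart on the log2 scale. The log2 fold change was -1.54 ± 0.15, and between -1.64 and -1.44 under all 10 alternatives. Its plastin relatives, which are expressed outside leukocytes, went separate ways: pls3 rose by 1.29 ± 0.09 and pls1, a gene of epithelial microvilli, fell by 0.51 on the log2 scale (SE 0.15), a call lost without sibling replicate 1.

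**Figure D3:**
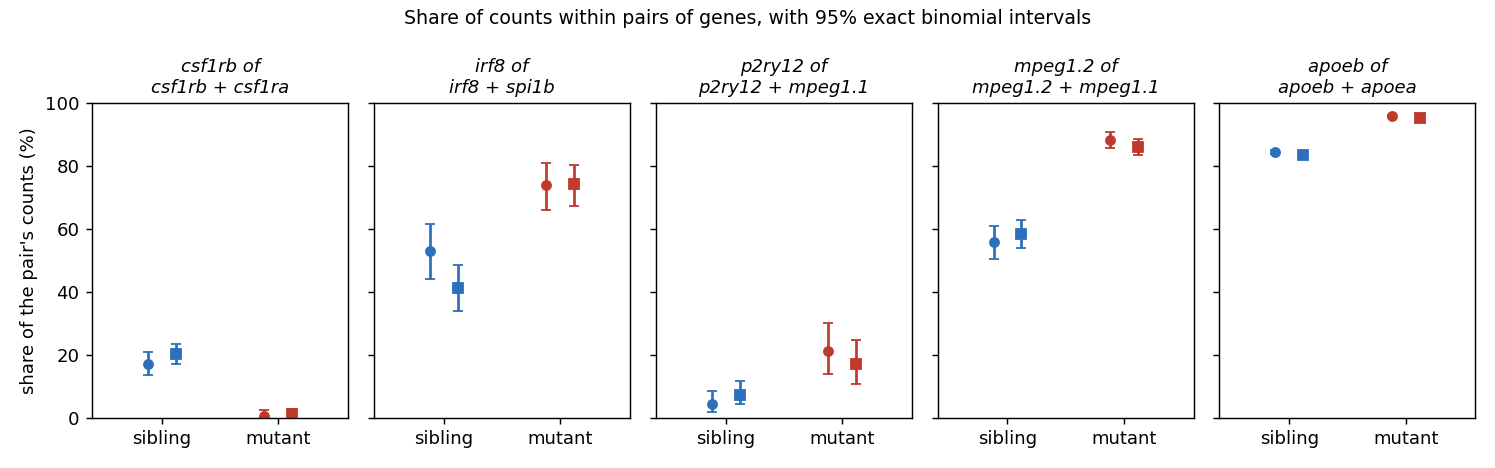
Share of a pair's counts taken by its first gene (y axis, percent) in each library, siblings in blue and mutants in red, circles for replicate 1 and squares for replicate 2, with 95% exact binomial intervals that cover counting error only. The csf1rb share is 17% and 20.1% in siblings and 0.664% and 1.04% in mutants. The other pairs drawn, irf8 with spi1b, p2ry12 with mpeg1.1, mpeg1.2 with mpeg1.1 and apoeb with apoea, have higher shares in both mutant libraries. The genes of these pairs were chosen with earlier results known, so their directions are descriptions.

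Among the 10 genes p2ry12, slc7a7 and apoeb were taken as microglia genes, and none of them passed as lower. Other genes of microglia did: csf1rb (-5.07), and ccl34b.1 (-1.84), ctss2.1 (-0.54) and apoea (-0.34) on a list of further microglia genes. The call of ctss2.1 was lost in DESeq2, without mutant replicate 1 (-0.43) and without sibling replicate 1 (-0.45). That of apoea was lost without sibling replicate 1 (-0.32). On the list of further microglia genes 6 rose, and irf8, needed for microglia, was higher too (0.70, with the losses of its call given above). The part of tissues outside microglia in the levels of all these genes was not tested. The purine receptor gene p2ry12, by which microglia sense nucleotides, was the member with the fewest sibling counts, at 22 and 21 in mutants and 7 and 16 in siblings, or 1.30 and 1.16 against 0.496 and 0.776 CPM. The mutant libraries were above the sibling libraries, but the sibling libraries lay 0.65 apart on the log2 scale, and the log2 fold change of 0.88 ± 0.44 did not pass; without single libraries it ran from 0.65 to 1.29. The ratio of scaled counts was 1.85, with a 95% exact binomial interval of 1.09 to 3.22 for counting error alone. Relative to mpeg1.1, p2ry12 made up 21.2% and 16.9% of the pair's counts in mutants and 4.27% and 7.31% in siblings. That share also moves with mpeg1.1, which was lower in mutants (-0.98), so it is no separate sign of a rise in p2ry12. The p2ry12 relative p2ry13 did not pass (-0.25 ± 0.42).

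The amino acid transporter gene slc7a7, which marks microglial precursors and also serves epithelia of gut and kidney in mammals, had 389 and 428 counts in mutants and 356 and 485 in siblings. In CPM the values were 23.0 and 23.6 against 25.2 and 23.5, and the groups overlapped. The log2 fold change was -0.06 ± 0.11, and the ratio of scaled counts was 0.962, with a 95% exact binomial interval of 0.873 to 1.06 for counting error alone. Of 11 genes of amino acid transport and other solute uptake in such epithelia, 7 fell and 2 rose (median -0.29), among them the peptide transporter gene slc15a1b (-0.93 ± 0.09), the amino acid transporter genes slc7a8a (-0.86 ± 0.08) and slc7a6 (0.61 ± 0.10), and slc3a2b (-0.68 ± 0.09), of the heavy chain that partners such transporters. Leaving out either sibling library cut the falls to 4. Summed over the list, the level was 842 and 784 CPM in mutants and 1164 and 1174 CPM in siblings. The part of these tissues in the level of slc7a7 was not tested.

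The apolipoprotein gene apoeb was the most abundant of the 10 in counts. It had 39709 and 39172 counts in mutants and 10127 and 13355 in siblings, or 2347 and 2157 against 717 and 648 CPM. The closest mutant and sibling libraries lay 1.59 apart on the log2 scale, against 0.12 between the mutant and 0.15 between the sibling libraries. The log2 fold change was 1.72 ± 0.09, and by number of counts apoeb ranked 34th and 33rd among all rows in mutants and 174th and 189th in siblings. Its paralogue apoea had 1652 and 1934 counts in mutants and 1862 and 2618 in siblings and fell by 0.34 on the log2 scale (SE 0.09), a call lost without sibling replicate 1. The share of apoeb in the counts of the apoe pair was 96.0% and 95.3% in mutants and 84.5% and 83.6% in siblings.

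Genes next to apoeb were also higher, with an exception. The neighbouring apolipoprotein gene apoc1, which is on the microglia list as well, rose by 1.89 ± 0.09, with a mutant mean of 816 ± 20.7 CPM and a sibling mean of 221 ± 34.2 CPM (SD, n = 2 each). The next gene, apoc4, had 26 and 30 counts in mutants and 6 and 3 in siblings and rose by 2.59 ± 0.53 (1.89 without sibling replicate 2 and 3.40 without sibling replicate 1). On the other side apoa4b.2 fell by 0.38 on the log2 scale (SE 0.08), and a gene without an assigned symbol, si:dkey-7f3.14, was at 2.0 ± 0.53, which became 3.23 when sibling replicate 2 was left out, and 1.49, no longer passing, when mutant replicate 1 was.

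Zebrafish apoeb is also made outside microglia, in other glia and in tissue that exports lipoproteins. Of 11 lipoprotein genes, 5 rose and 1 fell (median 0.18; none fell in DESeq2 or without either sibling library), the rises led by apom (1.84 ± 0.10), apoa2 (1.15 ± 0.09), apoa1b (0.75 ± 0.09) and apoc2 (0.55 ± 0.09). The lipoprotein gene that fell was apoda.1 (-0.31 ± 0.12). Not passing were mttp (-0.19 ± 0.10), apobb.1 (0.18 ± 0.09), apoa4a (0.15 ± 0.32), apoa1a (0.11 ± 0.08) and apoa4b.1 (-0.08 ± 0.08). Of these, apobb.1 passed with the replicate block and without mutant replicate 1 (0.25), and mttp without mutant replicate 2 (-0.30). Of 10 genes of glia and neural stem cells, 5 rose and 5 fell (median 0.03). The transporter gene slc1a3b (1.31 ± 0.11) and the calcium-binding gene s100b (1.54 ± 0.14) rose, while the Müller glia gene rlbp1a (-0.88 ± 0.14) and slc1a2b (-0.44 ± 0.08), a glutamate transporter gene, fell. The calls dropped to 2 rises and 2 falls when sibling replicate 2 was left out, to 2 falls without sibling replicate 1, and to 3 falls without mutant replicate 2 or in DESeq2. Summed levels were 9961 and 10359 CPM in mutants and 7018 and 6605 CPM in siblings for the lipoprotein list, and 1307 and 1247 against 1296 and 1288 CPM for the glial list. Without slc1a2b, its most abundant gene, the glial sums were 1012 and 924 against 888 and 859 CPM. The part of these tissues in the level of apoeb was not tested.

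**Figure D4:**
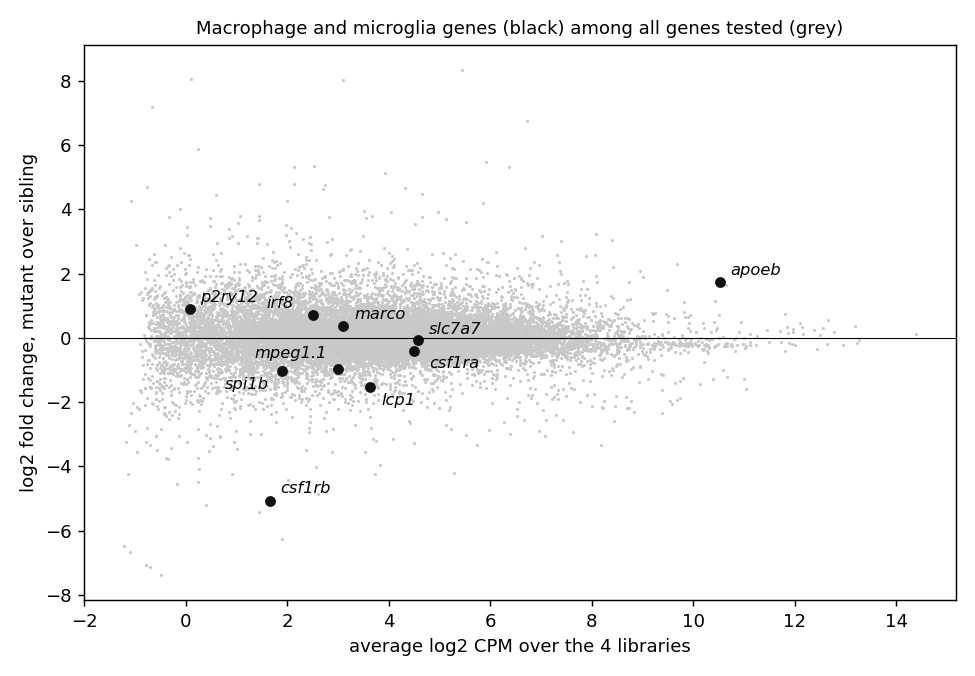
Average log2 CPM over 4 libraries (x axis) and log2 fold change, mutant over sibling (y axis), for the 20097 genes tested in grey, with the 10 macrophage and microglia genes in black. At -5.07, csf1rb is the 9th lowest of all, and apoeb, at 1.72, has the highest average level of the 10.

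Other macrophage and microglia genes were mixed. The lists of macrophage surface and effector genes and of microglia genes held 39 tested genes: 11 were higher, 10 were lower and 18 stayed below the threshold (median -0.10). As shares, 28.2% rose and 25.6% fell, close to the 22.9% and 21.0% of all genes, so these counts are no result about the lists. Only 6 fell without sibling replicate 1 and only 6 rose without sibling replicate 2, and DESeq2 called 7 and 5.

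On the macrophage list 5 genes rose and 7 fell of 23 (median -0.23; it was -0.51 without mutant replicate 1 and -0.01 without the other mutant library). Besides mpeg1.2, the mannose receptor gene mrc1a, which lymphatic endothelium also expresses, rose by 1.23 ± 0.11 (mutants 44.8 ± 1.79 CPM, siblings 19.2 ± 1.35 CPM; SD, n = 2 each), and the galectin gene lgals2a rose by 0.62 ± 0.11. The phagocyte oxidase gene cybb fell by 0.99 on the log2 scale (SE 0.20), from 8.39 ± 0.546 to 4.26 ± 0.576 CPM. Only 3 rose without sibling replicate 2, and in DESeq2 3 rose and 3 fell. Singled out after their values were seen, the invariant chain genes of antigen presentation, cd74a (-1.57 ± 0.40) and cd74b (-1.17 ± 0.39), were lower. The call of cd74b was lost in DESeq2, without mutant replicate 1 and without sibling replicate 2. Also named with their values in view, ccl34a.4 (1.18 ± 0.32) and ms4a17a.10 (1.39 ± 0.43) rose. The remaining falls were cxcr3.2 (-1.29 ± 0.33), fcer1g (-1.70 ± 0.47), timd4 (-0.82 ± 0.28) and il10ra (-1.54 ± 0.53). Except for cxcr3.2, lost without sibling replicate 1 (-0.97), the calls of these rises and remaining falls were lost in DESeq2.

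On the microglia list 6 genes rose and 3 fell of 16 (median -0.05). With apoc1, olfml3b (1.86 ± 0.11), whose mouse relative marks microglia, and the organic anion transporter gene slco2b1 (1.18 ± 0.09) rose. The chemokine gene ccl34b.1, which marks a subset of zebrafish microglia, fell by 1.84 on the log2 scale (SE 0.27), from 69 and 128 counts in siblings to 26 and 29 in mutants. Only 1 gene fell without sibling replicate 1, and only 3 rose without sibling replicate 2.

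**Figure D5:**
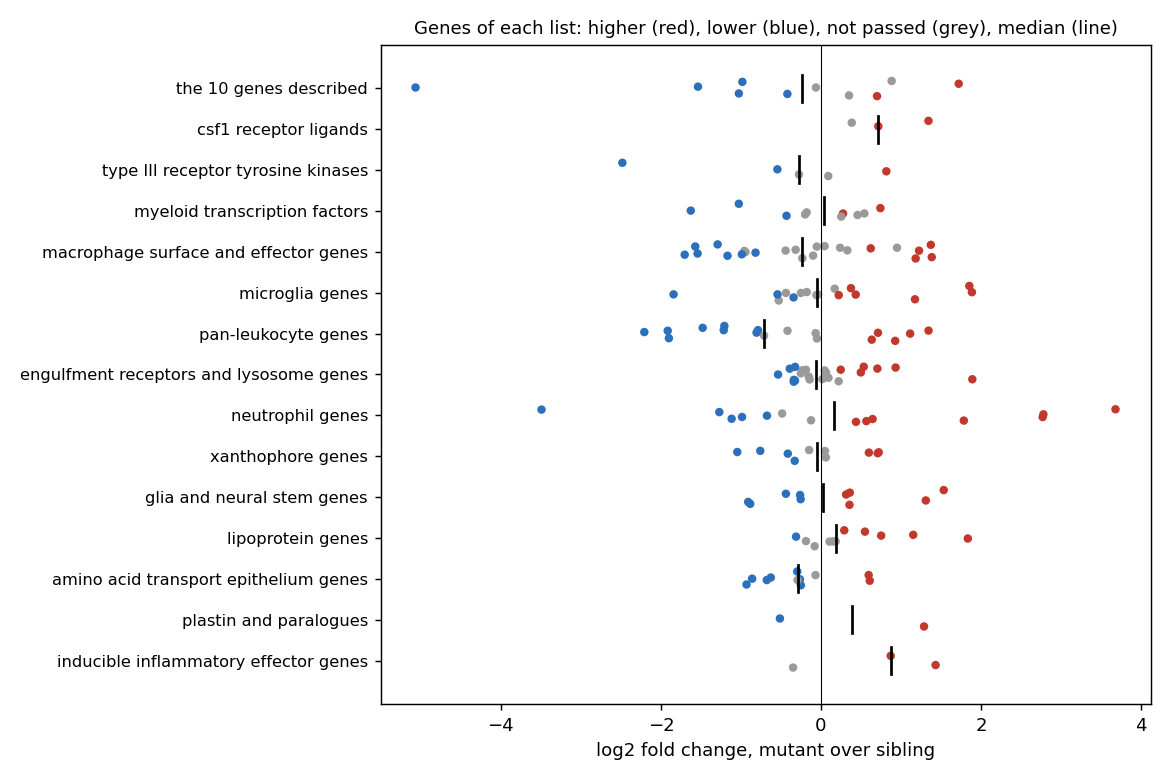
Log2 fold change, mutant over sibling (x axis), of every tested gene on each list (rows; vertical jitter has no meaning), with red for higher and blue for lower at an adjusted p under 0.05, grey for genes that did not pass, and a black line at the list's median. Red and blue both occur among the 10 genes and in all lists except the Csf1 receptor ligands and the inducible inflammatory genes, where 2 genes rose and none fell in each.

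Leukocyte genes other than macrophage markers were described beside lcp1. Of 17 pan-leukocyte genes, 8 fell and 5 rose (47.1% and 29.4%, against 21.0% and 22.9% of all genes). The median was -0.71, or -0.37 without sibling replicate 1. As the list was chosen with earlier results known, nothing is read from these shares. Among those with the smallest p, the rises were cyba, of an oxidase subunit that is not restricted to leukocytes (1.35 ± 0.14), arhgdig (0.93 ± 0.09) and hcls1 (1.12 ± 0.12), of an actin regulator, and the fall was the integrin gene itgae.1 (-1.91 ± 0.23). Singled out after their values were seen, ptprc, which encodes CD45 of nearly all white blood cells, had 57 and 62 counts in mutants and 150 and 176 in siblings (-1.48 ± 0.20), and coro1a, of a leukocyte actin regulator, had 109 and 98 against 192 and 282 (-1.21 ± 0.16). Both were lower in both mutant libraries, as lcp1 was. Summed over the whole list the level was 300.3 and 291 CPM in mutants and 225 and 213 CPM in siblings. That higher sum came from the 5 genes that rose, arhgdig alone having 121 and 122 against 66.8 and 61.4 CPM. The rest of the list summed to 46.8 and 47.1 CPM in mutants against 87.7 and 84.2 CPM in siblings. This division takes out the genes called higher, so nothing is read from the lower sum of the rest.

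Of 14 tested genes on a list drawn up for neutrophils, cpa5 included, 7 rose and 5 fell. The median was 0.16, but -0.13 with no filter on low counts and -0.12 in DESeq2. Summed levels were 1221 and 1163 CPM in mutants and 2064 and 2022 CPM in siblings, but the single gene cpa5 made up 775 and 797 against 1912 and 1879 CPM of that. Without cpa5 the direction turned, to 445 and 366 CPM in mutants against 152 and 143 CPM in siblings. That sum included mmp9, at 199 and 157 against 28.6 and 23.5 CPM, and lect2l, at 74.6 and 55.5 against 4.82 and 5.24 CPM. The sums thus follow a few abundant genes and are no measure of neutrophils. The granule enzyme gene mpx and the lysozyme gene lyz were picked with their values in view: mpx rose by 0.44 ± 0.12, a call lost without sibling replicate 2, and lyz had 3 and 0 counts in mutants and 14 and 22 in siblings. The chemotactic gene lect2l (3.68 ± 0.15) and the metalloproteinase genes mmp9 (2.78 ± 0.11) and mmp13a (2.77 ± 0.19) rose. Which cells are the source of these rises was not tested, so they are not read as a change in neutrophils. The carboxypeptidase gene cpa5 fell by 1.27 on the log2 scale (SE 0.09). Its sibling mean was 1895 CPM, against 20.1 CPM for mpx and 1.03 CPM for lyz. Whether neutrophils are the source of cpa5 was not tested, so its fall is not read as a change in neutrophils. Besides cpa5 and lyz the falls were npsn (-0.67 ± 0.13), csf3r (-1.12 ± 0.31) and gfi1aa (-0.99 ± 0.30), named after their values were seen. The call of gfi1aa was lost in DESeq2, without mutant replicate 1 (-0.74) and without sibling replicate 2 (-0.99). That of csf3r was lost without sibling replicate 1 (-0.93). Of 3 tested inducible inflammatory genes, il1b (1.43 ± 0.30), of the cytokine interleukin 1 beta, and nos2a (0.87 ± 0.20), of a nitric oxide synthase, rose. The others were named after their values were seen: acod1 was at -0.35 ± 0.53, and tnfa, at 0, 0, 0 and 1 counts, was not tested.

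Xanthophore genes were set beside csf1ra, which those cells express. Of 10 tested, 3 rose and 4 fell (median -0.05). The pteridine enzyme gene gch2 (0.72 ± 0.11), aox5 (0.60 ± 0.12), an oxidase gene, and slc22a7a (0.71 ± 0.13) rose. The gene scarb1, a carotenoid uptake gene that other tissues use for lipoprotein, fell by 1.05 on the log2 scale (SE 0.10). The other falls, named after their values were seen, were pax7a (-0.76 ± 0.17), pax7b (-0.41 ± 0.14) and xdh (-0.33 ± 0.10). The call of pax7a was lost without sibling replicate 2 (-0.49). That of xdh was lost without mutant replicate 1 (-0.21) and without sibling replicate 1 (-0.27). That of pax7b was lost in DESeq2 and without either sibling library. Leaving out either sibling library left 2 falls. Summed over the list, the level was 295 and 307 CPM in mutants and 328 and 312 CPM in siblings, and the part of pigment cells in the level of csf1ra was not tested.

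Engulfment and lysosome genes, which macrophages share with other cells, were split: 6 of 22 rose and 6 fell (median -0.06). The scavenger receptor genes of endothelium stab2 (1.89 ± 0.12) and stab1 (0.93 ± 0.10) and the protease gene ctsla (0.54 ± 0.09) rose. The folliculin gene flcn fell by 0.54 on the log2 scale (SE 0.10). Leaving out sibling replicate 2 left 4 rises and 1 fall.

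For each of the 10 genes the 3 genes nearest in profile were found by the Euclidean distance between log2(CPM + 1) values, centred on the siblings, over 4 libraries. With so few libraries many genes are near, and the added 1 shrinks the changes of genes with low CPM. The nearest to csf1rb were lens genes: crygm2e (distance 0.160), lim2.4 (0.225) and lim2.3 (0.258), where crygm2e belongs to a family of similar gamma-crystallin copies. Their fitted log2 fold changes were -5.41, -2.61 and -2.65, against -5.07 for csf1rb, so lim2.4 and lim2.3 were near only on the shrunken scale. The nearest to lcp1 were crygm2d6, another gamma-crystallin copy, prnpa and the phototransduction gene pde6a, at distances of 0.0711 to 0.0799. Those nearest to apoeb were tuba8l and the clotting factor genes fgg and f9b (0.0581 to 0.0873), and those nearest to irf8 were rfc2, tmem119b and acp1 (0.0608 to 0.116). For spi1b they were ppp1r16b, apba1b and fbxo33, for mpeg1.1 irx7, lct and magi2b, and for csf1ra slc6a15, igf2bp2a and aldh3b2. For p2ry12 they were mfsd5, qtrt1 and rwdd, for marco eri1, ssu72 and rnf181, and for slc7a7 ranbp3b, raraa and actc1b.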

How the data were processed

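The authors deposited raw counts of reads per gene, not normalized, for 4 libraries in a single table. Tools listed in the submitters' processing notes are STAR 2.7.10a, fastp 0.23.2, DESeq2 1.26.0, R 4.2.2 and featureCounts 2.0.1, with the build GRCz11 and no roles; the sources used here do not state the strand setting, the annotation or how reads with several matches were treated. The whole table was tested with edgeR 4.0.16 in R 4.3.3, all 23236 rows together (filterByExpr, which removed 3139 rows, TMM scaling, quasi-likelihood F-test, Benjamini-Hochberg adjustment over 20097 genes, threshold 0.05). The 17 rows named by digits only stayed in the fit and are not named.

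A standard error is the absolute log2 fold change over the root of F. CPM use TMM-scaled library sizes. The method was run on simulated data in which a far smaller share of genes changed than passed here. That run does not show how the method performs at the share seen in these libraries. The 10 genes and the 14 other lists were chosen with earlier results of these data known. Of 184 list entries 172 matched a row, 2 of them by a RefSeq synonym; cd163 is listed there as a synonym of cd63, a different gene, and was left unmatched after the match was seen. Named from each list were up to 4 genes with the smallest p past the threshold, all ligand, receptor kinase and plastin genes, 4 paralogues, 2 neighbours on each side of csf1ra, csf1rb and apoeb, and the 3 nearest profiles among genes with an assigned symbol and an average log2 CPM of at least 1. Replicates differed by more than sampling noise (chi-square over its degrees of freedom 5.64 in mutants and 2.73 in siblings). Replicate numbers gave a correlation of deviations of 0.0369 across genes, so they were not taken to pair the libraries. Alternatives were RLE and upper-quartile scaling, other filters, DESeq2 1.42.0, a replicate block and leaving out each library.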

Additional observations from a re-analysis of the deposited data

How the results depend on the processing

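Of the 10 genes, csf1rb, lcp1, spi1b, mpeg1.1, apoeb, slc7a7 and p2ry12 kept direction and side of the threshold under all 10 alternatives, while csf1ra, irf8 and marco changed side as given above. Without sibling replicate 2 the test called 2977 genes higher and 2429 lower in mutants, against 4595 and 4225 with all libraries; leaving out other libraries gave up to 4840 and 4680. Of the 10 genes, 1 to 2 were called higher and 4 to 5 lower when a library was left out, and 1 was called higher in DESeq2. Of the other macrophage and microglia genes, 6 to 11 were called higher and 6 to 9 lower when a library was left out, and DESeq2 called 7 higher and 5 lower. A fit that leaves out a library has 1 library in that group and takes its spread from the other group alone. A call can be lost there while the log2 fold change hardly moves. For gfi1aa it was -0.99 with all libraries and -0.99 without sibling replicate 2. The cause of the lost calls was not tested. With the replicate number as a block, 4827 genes were higher and 4521 lower, and 2 of the 10 genes were higher and 5 lower; the numbers are not stated to pair the libraries. RLE and upper-quartile scaling moved the median of all genes by -0.01 and -0.03. Depth limits csf1rb in mutants (2 and 4 counts) and p2ry12 in siblings (7 and 16 counts).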
